A study of Mus musculus with 8 samples.

Results

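Fatty acid oxidation, ketogenesis and the wider set of genes linked to the nuclear receptor PPARalpha were described in livers of hepatic Foxo1 knockout mice, set against livers of wildtype controls. The 36 member genes were taken by name from a list of enzymes, carriers and regulators of the pathway, and all 36 were found among the 25690 genes of the deposited table. The knockout group held 4 libraries, numbered 3, 9, 10 and 11 in their titles, and the wildtype group held 4, numbered 1, 3, 10 and 12. The labels give the tissue as liver and the genotypes as hepatic FOXO1 knockout and wildtype control. The strain, age, sex, feeding state, the Cre or other means of the knockout, and any agent given to both groups are not stated by the labels, and neither is whether each library stands for a separate animal. The p-values therefore measure the spread between these libraries, which may be technical in part.

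Beta-oxidation shortens fatty acyl-CoA chains in mitochondria and peroxisomes. In mitochondria each round runs through an acyl-CoA dehydrogenase, whose electrons pass to the electron transfer flavoprotein, then through a hydratase, a 3-hydroxyacyl-CoA dehydrogenase and a thiolase. In the fasted liver the acetyl-CoA made this way feeds the synthesis of ketone bodies, and PPARalpha, a receptor for fatty acids that acts together with the retinoid X receptor, raises many of the genes. FoxO1 is a forkhead factor that is active when insulin is low and is best known in liver for the genes of glucose output.

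Values are FPKM as the authors deposited them, a fragment count corrected for how long the transcript is and how many fragments the library holds. Depth per library, read from the FPKM that a single fragment is worth, came to between 26.9 and 35.2 M fragments. Differences are knockout minus wildtype on log2(FPKM + 1), which understates the change of genes near 1 FPKM, with limma's moderated test fitted over 10250 genes and Benjamini-Hochberg adjustment at 0.05. Foxo1 stood at 0.224, 0.267, 0.375 and 0.212 FPKM in knockouts 3, 9, 10 and 11, against 3.21, 3.01, 3.38 and 3.81 FPKM in wildtypes 1, 3, 10 and 12. It was low in each library labelled knockout, and the change was -1.78 (SE 0.09, limma adjusted p = 3.62e-05).

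Libraries differed within the knockout group, and part of these differences also set the knockout group apart from the wildtype group. The summed level of 22 acute phase genes was 115197 FPKM in knockout 3 and 109398 in knockout 11, but 15310 in knockout 9 and 15991 in knockout 10, against 12315 to 13260 in the wildtype libraries. The most uneven of these genes, Saa1, Saa2 and Saa3, are serum amyloid A genes that the liver makes in inflammation. Of all 22, 21 had positive changes and 3 passed as higher by limma, where 277 of all 10250 tested genes rose. The part of genotype in this rise was not tested. The summed level of 11 neutrophil and lymphocyte markers was 61.9 FPKM in knockout 3 and 148 in knockout 11, but 3.94 in knockout 9 and 7.83 in knockout 10, against 2.31 to 6.10 in the wildtype libraries. Its largest parts were S100a8 and S100a9, at 31.4 and 24.3 FPKM in knockout 3 and 77.3 and 57.5 in knockout 11. The lymphocyte markers Cd3e, Cd8a, Cd79a, Ms4a1 and Nkg7 were at no more than 0.393 FPKM in any library. Cd4 was at 1.69 FPKM in knockout 3 and 0.943 in knockout 11, against 1.24 and 1.71 in knockouts 9 and 10. Sums over 9 hepatocyte markers ran from 20657 to 27752 FPKM in knockout libraries and from 24767 to 26006 in wildtype libraries, so hepatocyte genes were high in each library. Sums over 8 sinusoidal endothelial markers were 38.5 to 68.5 FPKM in knockout and 68.5 to 88.9 in wildtype libraries, and sums over 8 Kupffer cell markers 47.6 to 79.0 and 57.8 to 79.2. By limma 2 of 7 tested endothelial markers fell, where 11.7% of all tested genes fell. At an unadjusted limma p under 0.05, 5 of these 7 were lower, beside 22.7% of all tested genes. Of 9 hepatocyte markers 0 fell and 1 rose, and of 7 tested Kupffer cell markers 0 passed. Stellate cell markers summed to 25.5 to 58.7 FPKM in knockout and 49.8 to 60.0 in wildtype libraries, and cholangiocyte markers to 15.6 to 24.7 and 11.3 to 16.7. Of 11 tested genes of fasting and feeding, 0 passed by limma and 1 had an unadjusted p under 0.05, with sums of 713 to 1239.6 FPKM in knockout and 1167 to 1508 in wildtype libraries. The adipocyte markers summed to under 0.193 FPKM in each library, with Lep at 0 in all 8. Changes also ran along transcript length: the median change was -0.31 over the 1014 tested genes with the shortest transcripts and 0.01 over the 1015 with the longest. The members that fell are therefore given as deposited, with that trend removed from each library, and without knockouts 3 and 11.

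Of the 36 members, 35 reached the mean of 1 FPKM needed for the test. The exception was the thioesterase gene Acot2. In knockout liver 6 of the 35 fell, 17.1%, where 11.7% of all tested genes fell. None of the 35 rose, where 2.7% of all tested genes rose; at an unadjusted limma p under 0.05, 13 were lower (37.1%, beside 22.7% of all tested genes) and 0 higher (beside 7.77%). The members that fell were the acyl-CoA dehydrogenase genes Acadvl and Acadm, Ech1 of unsaturated fatty acid oxidation, the electron carrier gene Etfb, and the peroxisomal thioesterase genes Acot3 and Acot4. In 7 members, 20%, each knockout library lay below each wildtype library, where 16.5% of all tested genes did so; the addition was Etfa, with an adjusted p of 0.0557 by limma. Without wildtype 3 the groups were apart in 17 members, 48.6% beside 20.8% of all tested genes. That library was the lowest wildtype library for most members, so its removal in itself favours a gap in the members. Without wildtype 1, wildtype 10 or wildtype 12 the count stayed at 7, or 20%, 20.6% and 20% of those tested. Of all tested genes, 1875 of 10252, 1850 of 10240 and 1877 of 10230 were apart in this way. Without knockouts 3 and 11 it was 7 of 36, 19.4%, where 2176 of 10277 tested genes were apart. Without knockout 10 it was 10 of 35, 28.6%, where 2151 of 10226 were apart. With quantile normalization the groups were apart in 3 members, 8.57% beside 11%. With the length trend described above removed they were apart in 4, 11.4% beside 10.7%. The median change over the 35 members was -0.35, with 27 negative and 8 positive, and over all tested genes it was -0.08. Without knockout 3 these medians were -0.19 and -0.06, and without knockouts 3 and 11 they were -0.15 and -0.01. Without wildtype 1, wildtype 10 or wildtype 12 the count of members that fell was 2, 3 and 3, or 5.71%, 8.82% and 8.57% of those tested, where 5.83%, 7.3% and 7.29% of all tested genes fell. With no filter on low values it was 3 of 36, 8.33% beside 4.82% of all genes.

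With the trend along transcript length removed, 2 of the 35 members fell, Acot3 and Acot4, which is 5.71% beside a background of 5.85%, and 0 rose beside 4.88%. The members' median change was then -0.23, with 24 negative and 11 positive, and that of all tested genes was 0.01. Over all genes, 594 fell and 495 rose with the trend removed, beside 1195 and 277 as measured, 720 and 485 with median-ratio scaling and 652 and 470 with quantile normalization. Under median-ratio scaling 4 members fell, 11.4% beside a background of 7.02%, and under quantile normalization 2, 5.71% beside 6.36%. Without knockouts 3 and 11, 2 of 36 members fell, Etfb and Acot4, which is 5.56% beside a background of 6.35%, and 0 rose beside 1.88%. With both steps together, a choice made after seeing the data, 0 members passed. The share of members that fell was thus near the background with the length trend removed, with quantile normalization and without knockouts 3 and 11. It was above the background as measured, with median-ratio scaling and with no filter. The same held without knockout 3 (11.4% beside 7.06%), with the GC trend removed (11.4%, where 816 of 10149 genes fell) and without knockout 10 (22.9%, where 1149 of 10226 fell). These shares were not tested against each other. The part of the acute phase, of transcript length and of genotype in the lower values was not tested. In liver tissue, fewer hepatocytes and less RNA per hepatocyte cannot be told apart.

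**Figure D1:**
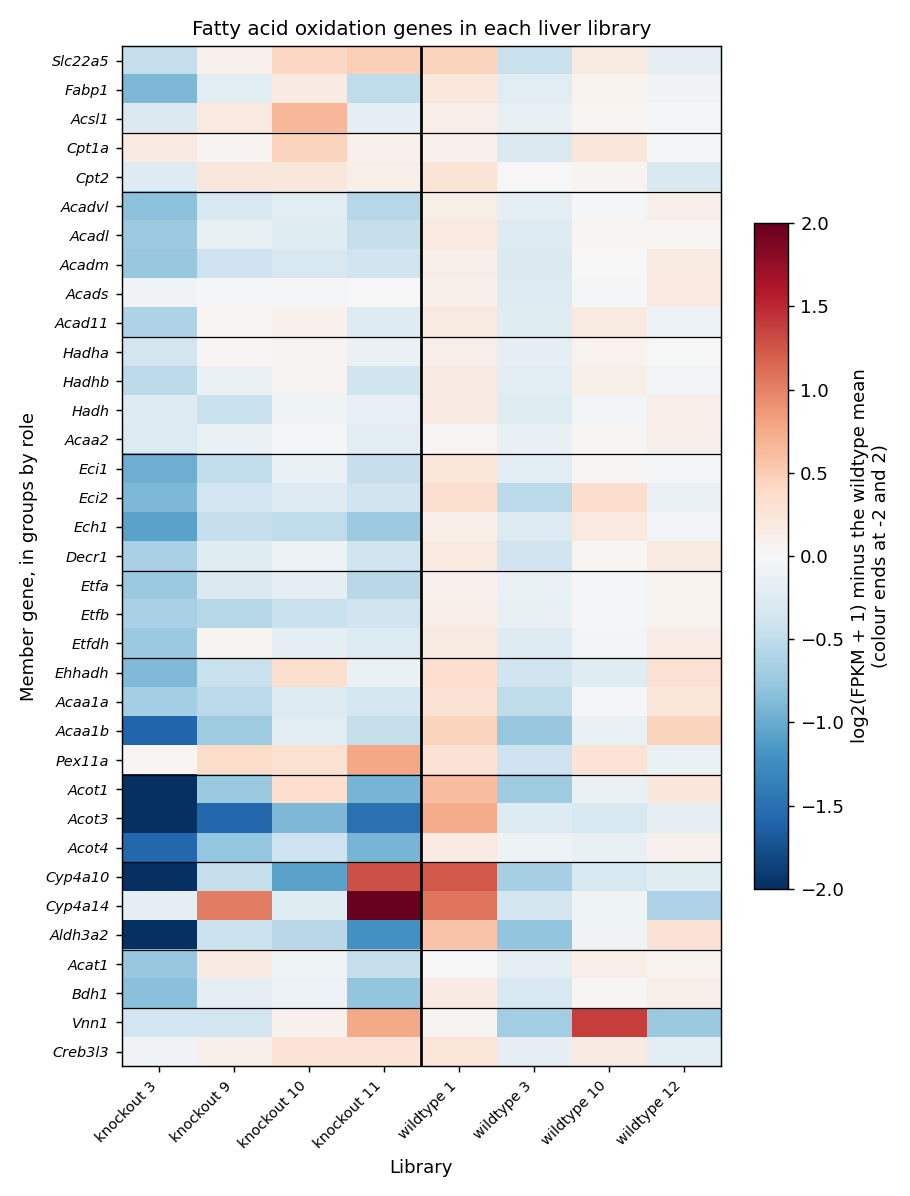
Level of each of the 35 tested members in each library, as log2(FPKM + 1) minus the wildtype mean, knockout libraries on the left and wildtype on the right, with rows grouped by role. Knockout 3 is the lowest of the 8 libraries for 27 of the 35 members, and wildtype 3 is the lowest wildtype library for 29.

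Short stretches upstream of members that fell are shown here because a PPAR response element is built from the hexamer AGGTCA, and the letters let a reader see where single copies of it lie. The stretches are the 250 bases before the RefSeq start of transcription (GRCm38.p6, the assembly of mm10), written 5′ to 3′ on the gene's own strand, with the hexamer or its reverse complement in capitals. Acadvl lies at chr11:70015429-70015678 on the minus strand, Acadm at chr3:153944644-153944893 on the minus strand, Acot4 at chr12:84038129-84038378 on the plus strand and Acot3 at chr12:84051894-84052143 on the plus strand.
Acadvl: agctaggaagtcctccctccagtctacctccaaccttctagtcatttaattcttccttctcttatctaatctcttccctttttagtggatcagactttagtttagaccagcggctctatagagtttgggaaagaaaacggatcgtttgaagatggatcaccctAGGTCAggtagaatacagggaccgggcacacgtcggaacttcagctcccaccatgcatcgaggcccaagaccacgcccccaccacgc
Acadm: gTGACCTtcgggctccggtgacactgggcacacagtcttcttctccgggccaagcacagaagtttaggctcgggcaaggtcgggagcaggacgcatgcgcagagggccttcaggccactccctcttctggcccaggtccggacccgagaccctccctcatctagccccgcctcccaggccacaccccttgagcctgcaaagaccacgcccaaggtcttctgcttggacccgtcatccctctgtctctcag
Acot4: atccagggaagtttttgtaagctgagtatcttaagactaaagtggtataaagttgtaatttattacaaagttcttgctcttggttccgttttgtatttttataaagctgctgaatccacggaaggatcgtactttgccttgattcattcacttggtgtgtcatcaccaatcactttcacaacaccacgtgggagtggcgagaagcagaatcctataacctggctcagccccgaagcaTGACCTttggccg
Acot3: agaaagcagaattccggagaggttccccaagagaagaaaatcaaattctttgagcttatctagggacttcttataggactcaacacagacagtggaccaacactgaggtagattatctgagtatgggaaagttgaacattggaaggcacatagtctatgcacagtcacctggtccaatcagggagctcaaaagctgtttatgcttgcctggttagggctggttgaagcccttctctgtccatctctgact

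The first 3 hold the hexamer once each and the Acot3 stretch, shown as its neighbour's counterpart, holds no match. The stretches of Ech1 and Etfb, not printed, hold no match either, so the hexamer was found in 3 of the 6 members that fell. RefSeq gave such a stretch for 30 of the 36 members, and 6 of these 30, 20%, held AGGTCA on either strand: Fabp1, Cpt1a, Acadvl, Acadm, Acot4 and Creb3l3. Over the stretches of 27025 mouse genes the share was 15.8%. An exact pair of AGGTCA hexamers spaced by any 1 base was found in 0 of 30 members and in 11 of 27025 genes, 0.0407%. So rare a string tells little by its absence from 30 genes, and imperfect pairs were not searched for. The forkhead motif GTAAACA was found in 0 of 30 members and 3.54% of all genes, and GTAAATA in 0 of 30 and 3.17%. CAAAACA, the core of the insulin response element, was found in 3 of 30, Cpt1a, Ehhadh and Creb3l3, and in 6.38% of all genes. Both strands were searched; a match is a string of letters and not a binding site, and the absence of one concerns these 250 bases alone.

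The route begins with uptake, binding and activation of the fatty acid, and none of its 3 members passed. Fabp1 encodes the fatty acid-binding protein of hepatocytes and had the highest level of all members, at 9248 ± 2847 FPKM in knockout and 11541 ± 1438 FPKM in wildtype liver (SD, n = 4 each). Its libraries overlapped, with 6185, 9836, 12887 and 8086 FPKM in knockouts 3, 9, 10 and 11 beside 9964 to 13305 FPKM in wildtypes (limma adjusted p = 0.303). Acsl1, the main long-chain acyl-CoA synthetase of the liver, stood at 203 ± 64.6 FPKM in knockout and 183 ± 15.2 FPKM in wildtype liver (limma adjusted p = 0.771), with knockout 10 the highest library at 291 FPKM. Slc22a5, the carnitine carrier OCTN2 of the plasma membrane, stood at 5.38 ± 1.75 FPKM in knockout and 4.82 ± 1.55 FPKM in wildtype liver (limma adjusted p = 0.776).

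The carnitine shuttle carries long chains into mitochondria, and neither member passed. Cpt1a, the outer membrane transferase that malonyl-CoA inhibits and that is taken as the rate-limiting step, had 62.5, 57.6, 76.0 and 59.0 FPKM in knockouts 3, 9, 10 and 11, against 59.1, 45.3, 64.6 and 54.2 FPKM in wildtypes 1, 3, 10 and 12. These ranges overlapped, and the change of 0.19 (SE 0.13) did not pass (limma adjusted p = 0.365). Cpt2, the inner membrane transferase, changed by 0.08 (SE 0.15, limma adjusted p = 0.775). In Cpt1a, knockout 3 was the second highest knockout library, unlike in most members.

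The acyl-CoA dehydrogenases take the first oxidation step, and the changes of all 5 were negative. Acadvl (ENSMUSG00000018574, chromosome 11, 70010183 to 70015411, mm10, minus strand) encodes the very long chain enzyme of the inner membrane. It had 85.3, 121, 129.5 and 102 FPKM in knockouts 3, 9, 10 and 11, against 165, 132.5, 149.8 and 163 FPKM in wildtypes 1, 3, 10 and 12. The groups did not overlap, although knockout 10 and wildtype 3 lay close together, and Acadvl fell by 0.49 (SE 0.14, limma adjusted p = 0.0478). Acadm (ENSMUSG00000062908, chromosome 3, 153922357 to 153944632, mm10, minus strand) encodes the medium chain enzyme, the one missing in the common human oxidation defect. It had 91.5, 117, 125 and 117 FPKM in knockouts 3, 9, 10 and 11, against 168, 127, 155 and 177 FPKM in wildtypes 1, 3, 10 and 12. Again the highest knockout and the lowest wildtype library lay side by side, and Acadm fell by 0.47 (SE 0.14, limma adjusted p = 0.0469).

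Both dehydrogenase calls lay near the threshold. Without knockout 3, knockout 11, wildtype 1, wildtype 3, wildtype 10 or wildtype 12 the limma adjusted p of Acadvl was 0.0950, 0.0968, 0.126, 0.0534, 0.101 and 0.110. Without knockout 3, knockout 9, knockout 11, wildtype 1, wildtype 10 or wildtype 12 that of Acadm was 0.105, 0.0595, 0.0717, 0.125, 0.103 and 0.113. With the length trend removed the changes were -0.37 for Acadvl (limma adjusted p = 0.0709) and -0.35 for Acadm (limma adjusted p = 0.0769). Without knockouts 3 and 11 they were -0.28 for Acadvl (limma adjusted p = 0.179) and -0.36 for Acadm (limma adjusted p = 0.161). Acadvl overlaps the oppositely transcribed Dvl2, which was at 0.963 to 1.28 FPKM in knockout and 1.02 to 1.44 FPKM in wildtype libraries. Of the other dehydrogenases, Acadl for long chains stood at 87.9 ± 15.5 FPKM in knockout and 115.5 ± 14.8 FPKM in wildtype liver (limma adjusted p = 0.102). Acads for short chains stood at 69.4 ± 1.41 FPKM in knockout and 71.4 ± 9.74 FPKM in wildtype liver (limma adjusted p = 0.882), with knockout libraries that differed by less than those of any other member. Acad11 stood at 80.9 ± 17.4 FPKM in knockout and 91.2 ± 13.4 FPKM in wildtype liver (limma adjusted p = 0.510).

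The later steps of the mitochondrial cycle had 4 members with changes from -0.26 to -0.11, and 0 of 4 passed. Hadha and Hadhb encode the subunits of the trifunctional protein, which handles long chains; knockout liver had 128 ± 16.8 and 136 ± 25.0 FPKM of them and wildtype liver 137 ± 12.02 and 162 ± 19.3 FPKM (limma adjusted p = 0.590 and 0.272). Hadh, the short chain 3-hydroxyacyl-CoA dehydrogenase, stood at 119.5 ± 12.5 FPKM in knockout and 141 ± 18.04 FPKM in wildtype liver (limma adjusted p = 0.220). Acaa2, the mitochondrial thiolase, had the narrowest spread within groups of all tested members, at 443 ± 34.0 FPKM in knockout and 496 ± 37.8 FPKM in wildtype liver (limma adjusted p = 0.307).

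The auxiliary enzymes rearrange the double bonds of unsaturated fatty acids so that they can enter the cycle. All 4 had negative changes, from -0.69 to -0.35, and 1 passed. Ech1 (ENSMUSG00000053898, chromosome 7, 28825217 to 28832247, mm10, plus strand), a dienoyl-CoA isomerase, had 89.8, 138, 134 and 115 FPKM in knockouts 3, 9, 10 and 11, against 209.9, 157, 219 and 183 FPKM in wildtypes 1, 3, 10 and 12. Each knockout library lay below each wildtype library, the mean was 1.61-fold lower, and Ech1 fell by 0.69 (SE 0.16, limma adjusted p = 0.0208). The call was lost without wildtype 1 (limma adjusted p = 0.0675), without wildtype 10 (0.0618), with the length trend removed (-0.46, limma adjusted p = 0.0749) and without knockouts 3 and 11 together (-0.48, limma adjusted p = 0.0833). Eci1, an enoyl-CoA isomerase, stood at 69.0 ± 16.1 FPKM in knockout and 97.9 ± 13.2 FPKM in wildtype liver (limma adjusted p = 0.0755), and its ranges of 48.8 to 88.1 FPKM in knockouts and 82.7 to 115 FPKM in wildtypes overlapped by knockout 10 and wildtype 3 alone. Eci2 and Decr1, a second isomerase and the dienoyl-CoA reductase, had changes of -0.48 and -0.35 (limma adjusted p = 0.164 and 0.175).

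Electrons from the acyl-CoA dehydrogenases are taken up by the flavoprotein of Etfa and Etfb and passed to ubiquinone by Etfdh. Etfb (ENSMUSG00000004610, chromosome 7, 43444083 to 43457800, mm10, plus strand), the beta subunit, had 267, 284, 308 and 318 FPKM in knockouts 3, 9, 10 and 11, against 458, 378, 407 and 439 FPKM in wildtypes 1, 3, 10 and 12. The groups stood well apart, and knockouts 3 and 11, the libraries with high acute phase genes, were the lowest and the highest of the knockouts. Etfb fell by 0.51 (SE 0.10, limma adjusted p = 0.0113), kept its call when any single library was left out, and fell by 0.50 without knockouts 3 and 11 (limma adjusted p = 0.0355). Its transcript of 893 bases is within that shortest class, and with the length trend removed its change was -0.19 (limma adjusted p = 0.142). Gm45233, Gm44816 and Mir7051 overlap Etfb on the same strand and are absent from the deposited values. Etfa, the alpha subunit, had 203, 278, 300.5 and 230.5 FPKM in knockouts 3, 9, 10 and 11, against 362, 309, 332 and 357 FPKM in wildtypes 1, 3, 10 and 12. The groups did not overlap, yet its change of -0.44 (SE 0.13) did not pass (limma adjusted p = 0.0557). Etfdh stood at 81.5 ± 18.01 FPKM in knockout and 98.4 ± 13.7 FPKM in wildtype liver (limma adjusted p = 0.302).

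**Figure D2:**
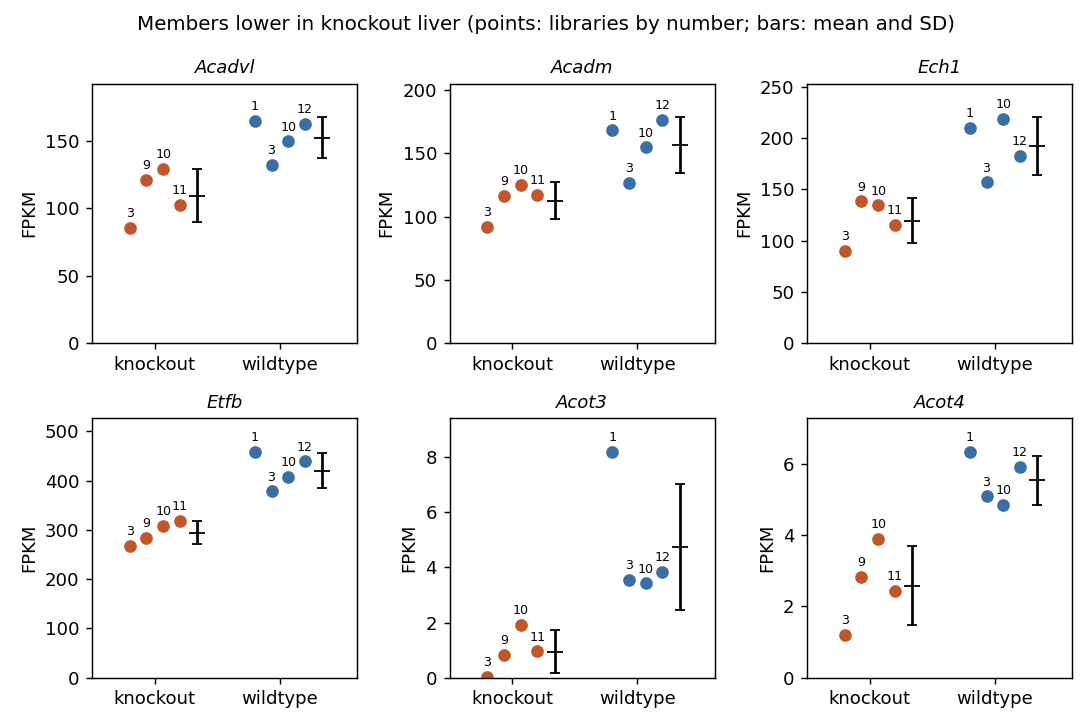
FPKM of the 6 members that fell, by library, with knockout left of wildtype; points carry the library number and bars give the mean and SD of 4 libraries. The groups do not overlap in any of the 6, and knockout 3 is the lowest library in each.

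Acyl-CoA thioesterases split acyl-CoA into free acid and coenzyme A, and the Acot genes on mouse chromosome 12 form a cluster whose members sit in the cytosol, mitochondria and peroxisomes. Of the members that passed, the largest changes were in this role. Acot3 (ENSMUSG00000021228, chromosome 12, 84052144 to 84060402, mm10, plus strand), a peroxisomal enzyme in mouse, had 0.0212, 0.836, 1.93 and 0.951 FPKM in knockouts 3, 9, 10 and 11, against 8.18, 3.56, 3.42 and 3.85 FPKM in wildtypes 1, 3, 10 and 12. The highest knockout library was below the lowest wildtype library, and the mean of 0.934 ± 0.781 FPKM in knockout was 5.09-fold lower than the 4.75 ± 2.29 FPKM in wildtype liver (SD, n = 4 each). Acot3 fell by 1.60 (SE 0.33, limma adjusted p = 0.0135).

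Acot4 (ENSMUSG00000052392, chromosome 12, 84038379 to 84048601, mm10, plus strand), another peroxisomal enzyme in mouse, acts on the coenzyme A esters of dicarboxylic acids. It had 1.20, 2.82, 3.88 and 2.43 FPKM in knockouts 3, 9, 10 and 11, against 6.32, 5.08, 4.85 and 5.90 FPKM in wildtypes 1, 3, 10 and 12. The groups did not overlap, the mean was 2.15-fold lower, and Acot4 fell by 0.92 (SE 0.21, limma adjusted p = 0.0215). Acot3 and Acot4 were the members whose calls held with the length trend removed, at -1.54 and -0.90 (limma adjusted p = 0.0262 and 0.0307). Acot3 kept its call when any single library was left out, but without knockouts 3 and 11 its change was -1.24 (limma adjusted p = 0.0600). Acot4 lost it without wildtype 1 (limma adjusted p = 0.0670) or wildtype 12 (0.0573) and kept it without knockouts 3 and 11 (-0.59, limma adjusted p = 0.0497).

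Acot1, the cytosolic enzyme, and Acot2, the mitochondrial one, ranged widely. Acot1 had 0.403, 2.65, 6.72 and 2.21 FPKM in knockouts 3, 9, 10 and 11, against 8.41, 2.74, 4.56 and 6.16 FPKM in wildtypes 1, 3, 10 and 12. Knockout 10 exceeded 3 of the 4 wildtype libraries, and the change of -0.87 (SE 0.47) did not pass (limma adjusted p = 0.247). It was -0.45 without knockout 3, -1.27 without knockout 10 and -0.21 without knockouts 3 and 11. Acot2 averaged 0.656 ± 0.539 FPKM in knockout and 1.12 ± 0.557 FPKM in wildtype liver and was not tested. Thus the groups overlapped in Acot1 and Acot2 and not in Acot3 and Acot4, and a difference between the genes was not tested. Outside the member list the compartments sorted otherwise. Mitochondrial Acot13 had 57.5 to 76.5 FPKM in knockouts and 104 to 120 FPKM in wildtypes, without overlap. Peroxisomal Acot8 had 7.01 to 10.9 FPKM in knockouts and 9.47 to 12.5 FPKM in wildtypes, which overlapped.

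The Acot genes arose by duplication, and their likeness bears on how reads were shared out. Coding bases 301 to 420 of Acot3 are set beside the matching bases 268 to 387 of Acot1 and Acot4, from GENCODE transcripts, because most of it is the same in the genes that fell and in the one whose groups overlapped. Capitals mark bases that differ: in Acot1 and Acot4 those unlike Acot3, and in Acot3 those unlike either.
Acot3: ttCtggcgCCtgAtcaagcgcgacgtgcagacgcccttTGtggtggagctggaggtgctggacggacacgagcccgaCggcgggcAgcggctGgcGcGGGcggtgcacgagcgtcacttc
Acot1: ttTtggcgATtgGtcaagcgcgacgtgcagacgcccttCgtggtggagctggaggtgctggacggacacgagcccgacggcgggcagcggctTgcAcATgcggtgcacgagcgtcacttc
Acot4: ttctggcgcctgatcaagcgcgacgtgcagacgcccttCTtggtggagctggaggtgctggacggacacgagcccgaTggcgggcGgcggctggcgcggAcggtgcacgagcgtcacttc

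Acot1 differs from Acot3 at 9 of these 120 bases and Acot4 at 5. Over the whole coding sequence Acot3 is 84.0% identical to Acot1 and 74.6% identical to Acot4. Of all windows of 50 bases in Acot3, 13.7% recur without a mismatch in Acot1 and 9.70% in Acot4; Acot1 and Acot2 are 95.6% identical and share 43.6% of the windows of Acot1. Summed over Acot1 to Acot5 the level was 7.24 ± 5.10 FPKM in knockout and 17.1 ± 5.78 FPKM in wildtype liver, and the change of -1.32 (SE 0.44) did not pass (limma adjusted p = 0.0770). Without knockout 10 it was -1.69 (limma adjusted p = 0.0224). Acot3 and Acot4 also overlap Gm49366, a protein-coding gene of the same strand that is absent from the deposited values. Both further overlap the antisense gene 4732463B04Rik, at 0.642 to 1.54 FPKM in knockout and 2.05 to 2.56 FPKM in wildtype libraries. No source used here states the strand setting, so reads of the antisense gene and of the Acot genes cannot be told apart.

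Peroxisomal oxidation shortens very long chains, and several of its genes are textbook PPARalpha targets in rodents; 0 of the 4 members passed. Acaa1a and Acaa1b encode peroxisomal thiolases. Acaa1b had 81.2, 151, 212 and 177 FPKM in knockouts 3, 9, 10 and 11, against 337, 145, 225 and 336 FPKM in wildtypes 1, 3, 10 and 12. The wildtype libraries themselves differed 2.32-fold, and the change of -0.75 (SE 0.34) did not pass (limma adjusted p = 0.169). Acaa1a stood at 97.1 ± 12.3 FPKM in knockout and 136 ± 31.5 FPKM in wildtype liver (limma adjusted p = 0.119). The bifunctional enzyme gene Ehhadh stood at 41.7 ± 15.0 FPKM in knockout and 49.9 ± 12.9 FPKM in wildtype liver (limma adjusted p = 0.511). Pex11a, which drives the division of peroxisomes, had 20.99, 26.6, 25.4 and 35.7 FPKM in knockouts 3, 9, 10 and 11, against 25.1, 15.1, 24.9 and 18.5 FPKM in wildtypes 1, 3, 10 and 12, a change of 0.37 (SE 0.20) that did not pass (limma adjusted p = 0.239).

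The thiolase genes are a second case of near-identical copies. Coding bases 301 to 420 of both show how little sets them apart, with the differing bases in capitals.
Acaa1a: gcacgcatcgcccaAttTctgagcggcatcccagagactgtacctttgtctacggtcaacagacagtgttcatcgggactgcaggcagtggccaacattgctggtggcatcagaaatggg
Acaa1b: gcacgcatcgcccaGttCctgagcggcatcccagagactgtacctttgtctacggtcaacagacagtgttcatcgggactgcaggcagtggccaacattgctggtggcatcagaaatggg

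They differ at 2 of these 120 bases and are 96.5% identical over the coding sequence, and 37.9% of the windows of 50 bases in one recur in the other. The split between them rests on how the authors' counting shared such reads, so their sum is given as well. It was 252 ± 67.3 FPKM in knockout and 396 ± 124 FPKM in wildtype liver, a change of -0.63 (SE 0.27) that did not pass (limma adjusted p = 0.150).

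Omega-oxidation starts from the far end of the chain, through the microsomal Cyp4a hydroxylases, and Aldh3a2 oxidises the fatty aldehydes; 0 of the 3 members passed. Cyp4a14, among the most PPARalpha-responsive genes of mouse liver, had 0.547, 2.60, 0.503 and 17.8 FPKM in knockouts 3, 9, 10 and 11, against 2.73, 0.375, 0.664 and 0.163 FPKM in wildtypes 1, 3, 10 and 12. Knockout 11 stood alone, and the knockout libraries differed 35.4-fold and the wildtype libraries 16.7-fold (limma adjusted p = 0.411). Its SD within groups, pooled over both groups on log2(FPKM + 1), was 1.32, the highest of all tested members. Cyp4a10 had 2.52, 11.3, 7.17 and 40.9 FPKM in knockouts 3, 9, 10 and 11, against 39.2, 9.84, 12.8 and 13.6 FPKM in wildtypes 1, 3, 10 and 12. Knockout 11 and wildtype 1 were alike in being high, and the groups overlapped (limma adjusted p = 0.579).

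Cyp4a10 is 97.2% identical to Cyp4a32 in its coding sequence, and 34.6% of its windows of 50 bases recur there, whereas 0 recur in Cyp4a14. The sum of Cyp4a10, Cyp4a31 and Cyp4a32 was 43.5 ± 36.1 FPKM in knockout and 77.9 ± 39.3 FPKM in wildtype liver (limma adjusted p = 0.206). Without knockout 11 its change was -1.53 (limma adjusted p = 0.0392). Aldh3a2, the fatty aldehyde dehydrogenase, had 6.90, 23.4, 21.3 and 13.2 FPKM in knockouts 3, 9, 10 and 11, against 47.7, 18.0, 30.4 and 39.1 FPKM in wildtypes 1, 3, 10 and 12. Its mean was 2.09-fold lower in knockout liver, but wildtype 3 lay among the knockouts and the change of -1.06 (SE 0.38) did not pass (limma adjusted p = 0.0973).

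**Figure D3:**
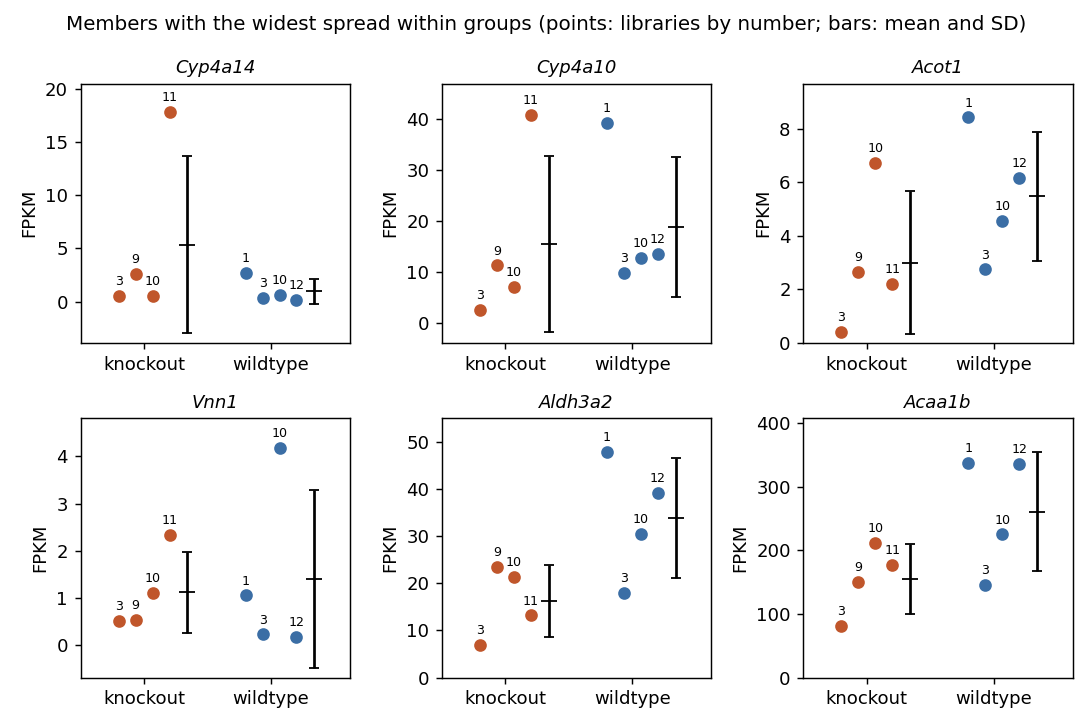
FPKM by library of the 6 tested members with the widest spread within groups on the log2(FPKM + 1) scale, knockout left of wildtype, with library numbers at the points and bars for the mean and SD of 4 libraries. Cyp4a14 and Cyp4a10 are highest in knockout 11, Vnn1 in wildtype 10 and the other 3 in wildtype 1.

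Ketone body enzymes were represented by Acat1, the mitochondrial acetoacetyl-CoA thiolase, and Bdh1, which reduces acetoacetate to 3-hydroxybutyrate, and neither passed. Bdh1 had 76.1, 119, 126 and 78.8 FPKM in knockouts 3, 9, 10 and 11, against 153, 109.9, 139.7 and 149 FPKM in wildtypes 1, 3, 10 and 12. Knockouts 3 and 11 were low and knockouts 9 and 10 lay within the wildtype range (change -0.49, SE 0.19, limma adjusted p = 0.118). In Acat1 knockouts 3 and 11 were again the low libraries, with 107, 205, 172 and 132 FPKM in knockouts 3, 9, 10 and 11 beside 159 to 199 FPKM in wildtypes (limma adjusted p = 0.338).

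The last members are the pantetheinase gene Vnn1 and Creb3l3, a membrane-bound transcription factor of hepatocytes that acts with PPARalpha, and neither passed. Vnn1 was at 0.516, 0.535, 1.10 and 2.34 FPKM in knockouts 3, 9, 10 and 11, against 1.06, 0.233, 4.18 and 0.184 FPKM in wildtypes 1, 3, 10 and 12. Wildtype 10 stood above the rest, and the change was 0.02 (SE 0.45, limma adjusted p = 0.986). Creb3l3 stood at 117 ± 13.1 FPKM in knockout and 106 ± 17.5 FPKM in wildtype liver (limma adjusted p = 0.512).

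**Figure D4:**
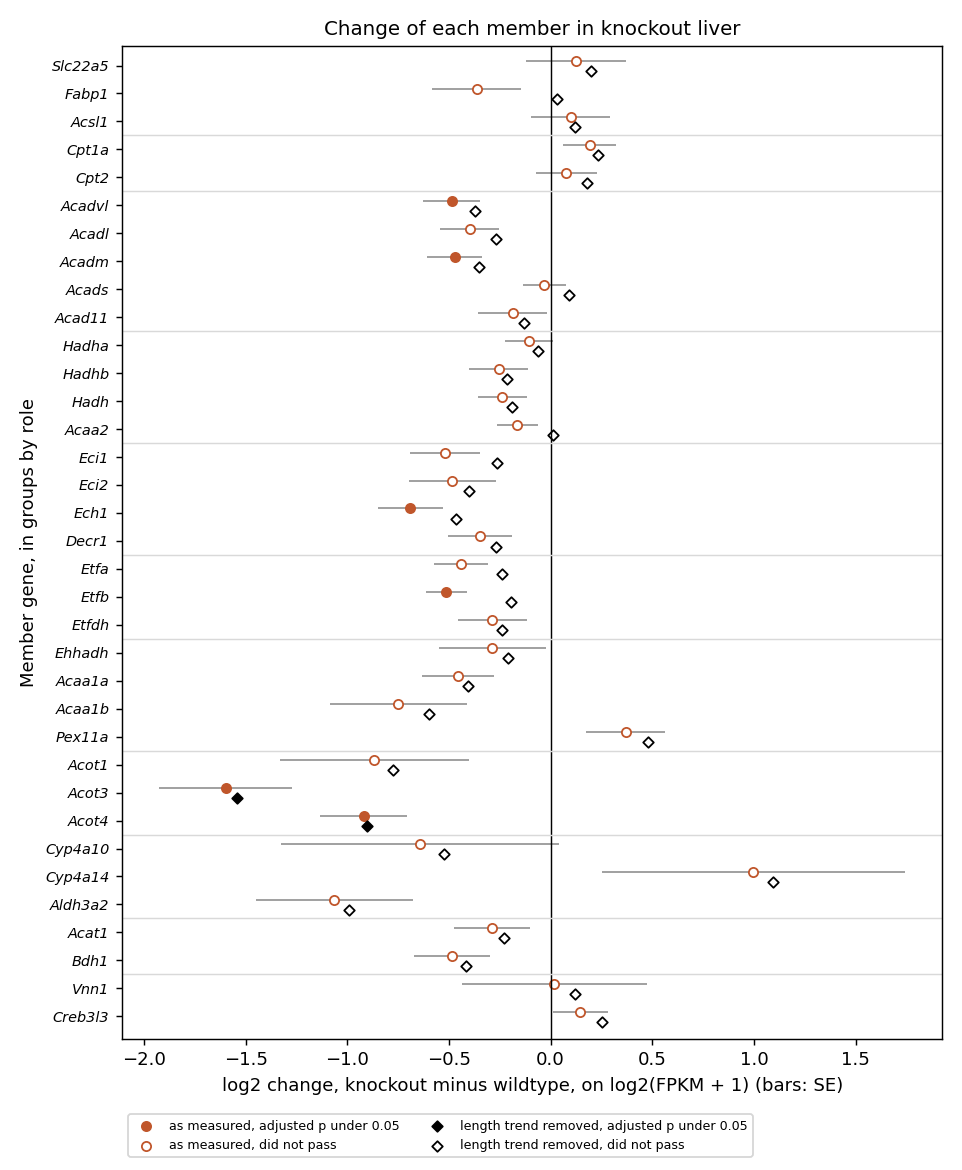
Change of each tested member in knockout relative to wildtype liver on the log2(FPKM + 1) scale, by role; circles with SE bars are the values as measured, diamonds those with the trend along transcript length removed, and filled symbols passed at 0.05. Filled circles mark Acadvl, Acadm, Ech1, Etfb, Acot3 and Acot4, and filled diamonds mark Acot3 and Acot4.

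The roles moved unequally in the median. The median change was -0.92 over the 3 tested thioesterases, -0.50 over the auxiliary enzymes, -0.44 over the electron transfer genes and -0.40 over the acyl-CoA dehydrogenases, against 0.13 over the carnitine shuttle and 0.10 over uptake and activation. With the length trend removed the same medians were -0.90, -0.34, -0.24, -0.27, 0.21 and 0.12. These are descriptions of small lists beside an overall median of -0.08 as measured and 0.01 with the trend removed, and no difference between the roles was tested.

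Much of the variation ran between libraries of the same genotype. The members' median deviation from the wildtype mean was -0.73 in knockout 3, -0.24 in knockout 9, -0.10 in knockout 10 and -0.39 in knockout 11, against 0.18, -0.26, 0.02 and 0.04 in wildtypes 1, 3, 10 and 12. Wildtype 3 was thus as low as knockout 9, with no rise of the acute phase genes, whose median deviation there was -0.05. In knockouts 3, 9, 10 and 11 the acute phase median was 2.25, 0.20, 0.22 and 2.02. Knockout 3 was the lowest knockout library for 32 of the 35 members and knockout 10 the highest for 22, and wildtype 1 was the highest wildtype library for 27. The knockout SD exceeded the wildtype SD on the log2 scale in 22 of the 35.

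**Figure D5:**
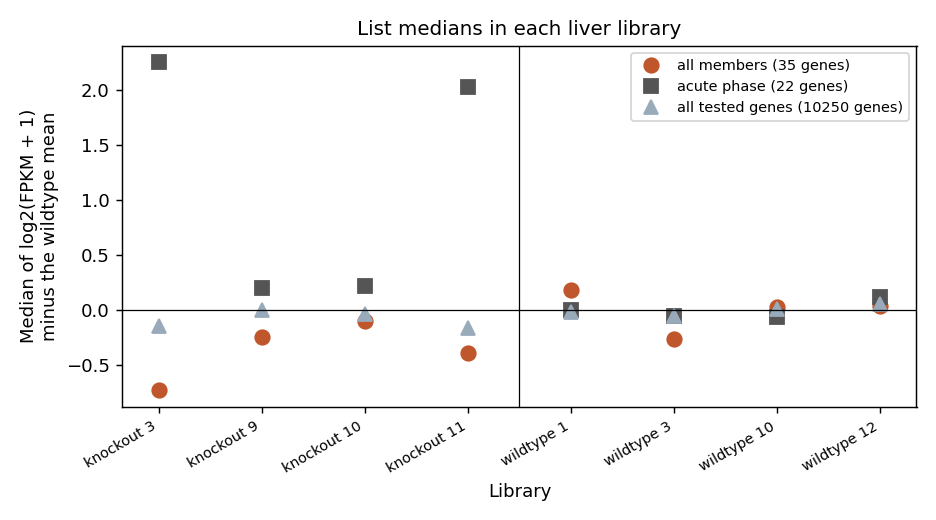
Median over the 35 tested members, over 22 acute phase genes and over all 10250 tested genes of log2(FPKM + 1) minus the wildtype mean, in each library, knockout left of wildtype. Knockouts 3 and 11 have acute phase medians of 2.25 and 2.02 and member medians of -0.73 and -0.39, while wildtype 3 has a member median of -0.26 with an acute phase median of -0.05.

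Genes of the same pathway outside the member list were fitted alongside. Of 81 tested, 8 fell, 9.88% beside the background of 11.7%, and 0 rose, with a median change of -0.03. At an unadjusted limma p under 0.05, 17 of the 81 were lower and 6 higher. Of all tested genes, 22.7% were lower and 7.77% higher by the same measure. The difference from the members' share was not tested. Without knockout 3, wildtype 1 or wildtype 12 the count that fell was 5, 4 and 5, where 7.06%, 5.83% and 7.29% of all tested genes fell. Acot13, a mitochondrial thioesterase, had 62.1, 57.5, 70.8 and 76.5 FPKM in knockouts 3, 9, 10 and 11, against 114, 107, 104 and 120.4 FPKM in wildtypes 1, 3, 10 and 12, and fell by 0.74 (SE 0.11, limma adjusted p = 0.0045). It also fell with the length trend removed, by 0.38 (limma adjusted p = 0.0248), and without knockouts 3 and 11, by 0.79 (limma adjusted p = 0.0141). Bdh2, a cytosolic dehydrogenase related to Bdh1, fell by 0.71 (limma adjusted p = 0.0137), Gcdh of lysine and tryptophan breakdown by 0.68 (0.0241), the bile acyl-CoA synthetase gene Slc27a5 by 0.61 (0.0115), the mitochondrial deacetylase gene Sirt3 by 0.59 (0.0148) and the medium chain acyl-CoA synthetase gene Acsm3 by 0.51 (0.0140). All 6 named here also passed with the length trend removed, whereas without knockouts 3 and 11 Bdh2, Gcdh, Sirt3 and Acsm3 did not (limma adjusted p = 0.0811, 0.0951, 0.0736 and 0.0780). The other genes that fell were Acad8 and Fabp2, outside the rule for named genes.

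The gene of the receptor itself did not pass. Ppara, looked up after its values were seen, had 24.7, 27.9, 31.8 and 18.6 FPKM in knockouts 3, 9, 10 and 11, against 20.0, 15.1, 24.2 and 28.8 FPKM in wildtypes 1, 3, 10 and 12, a change of 0.23 (SE 0.21, limma adjusted p = 0.511).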

How the data were processed

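Liver RNA libraries, 4 knockout and 4 wildtype, were grouped by the genotype label. The authors deposited FPKM per gene; the unit was read from the values and the named tools, since the header holds library names only. TopHat2 2.1.0, HTSeq, Cufflinks 2.2.1 and the build mm10 are named without role or order, per the submitters' processing notes. No source used here states the strand setting or the annotation. Names, lengths and coordinates came from GENCODE M21 (24807 rows matched), promoter sequences from RefSeq.

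Genes averaging 1 FPKM or more, 10250 in number, entered a limma fit of log2(FPKM + 1) (limma 3.58.1, R 4.3.3) with genotype alone, mean-trended moderated variances, two-sided, adjusted over all tested genes. The steps were tested on simulated data. The trend along transcript length or GC content was removed per library with a symmetric loess of span 0.5. Counting intervals are not given, since FPKM hold no counts; the depth is implied by single-fragment FPKM.

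The members, gene lists, tests and alternatives were chosen with earlier results of these data known. All members were named, plus Foxo1, up to 6 other pathway genes per direction with the smallest adjusted p, and up to 3 uneven genes per marker list. Ppara, Acad8, Acot8, Fabp2, Cyp4a31, Cyp4a32, Dvl2, 4732463B04Rik, Cd3e, Cd4, Cd8a, Cd79a, Ms4a1 and Nkg7 were added after their values were seen. One listed gene, Acbp, was not matched by name. The alternatives changed the pseudocount, the filter, the scaling, the variance model or the weights, added a replicate block, or left out libraries.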

Additional observations from a re-analysis of the deposited data

Results flagged for a closer look

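In a group of 4 libraries, 1 value stood far from the others, that of Acot3 in wildtype 1. Acot3 was at 0.0212 to 1.93 FPKM in the knockout libraries, and at 8.18 FPKM in wildtype 1 and 3.42 to 3.85 FPKM in the other wildtype libraries. Its gap to the nearest library was 0.874 of the group's range on the log2 scale. In all, 86 groups were examined this way, and chance alone marks about 1 in 20 groups.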

How the results depend on the processing

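The count of members that rose was 0 in every alternative run. The count that fell was 6 as reported, 3 with no filter, 2 with quantile normalization and 2 with the length trend removed. It was 0 with the replicate block, where 1 of all 10250 tested genes fell, and 2 without knockouts 3 and 11. Leaving out single libraries gave 2 to 8. The 2 came without wildtype 1, where 598 of 10252 tested genes fell, and the 8 without knockout 10, where 1149 of 10226 fell. With the length trend removed the count of members that fell was 1 without knockout 3 and 0 without knockouts 3 and 11. Both settings were chosen after seeing the data, and 226 of 10152 and 256 of 10175 tested genes fell in them. Library weights, robust variances and a pseudocount of 0.1 gave 7, 6 and 6, where 1369, 1203 and 1176 of all 10250 tested genes fell. A filter at 5 FPKM gave 5, where 1197 of 6003 fell. Median-ratio scaling and removal of the GC trend gave 4 each, where 720 of 10250 and 816 of 10149 fell. Wherever a count moved, the cause was not tested.

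The numbers 3 and 10 occur in both groups. The deviations of same-numbered libraries from their group means correlated at -0.0079 and 0.022 over 10250 genes. The labels do not say what the numbers stand for, and such values cannot show whether the libraries were paired. The replicate block left 0 members and 0 other pathway genes, with limma adjusted p-values of 0.272 to 0.348 for the 6 members. Over all 10250 genes it left 1 that fell and 1 that rose, so its counts say nothing particular to the members.

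The count of other pathway genes that fell, 8 as reported, was 5 with median-ratio scaling, where 720 of all 10250 tested genes fell. It was 0 with the replicate block, where 1 of 10250 fell, and 3 without knockouts 3 and 11, where 653 of 10277 fell. With single libraries left out it was 4 to 12, the 4 without wildtype 1 and the 12 without knockout 10. With the length trend removed it was 1 without knockout 3 and 2 without knockouts 3 and 11. The count that rose, 0 as reported, was 3 each with median-ratio scaling, quantile normalization and the GC trend removed. Of all tested genes 485 of 10250, 470 of 10250 and 550 of 10149 rose there. The count was 1 each with library weights and the length trend removed, where 401 of 10250 and 495 of 10149 rose. Without knockouts 3 and 11 it was 6, 7.41% beside 1.88% of all tested genes, a difference that was not tested. Leaving out single libraries gave 0 to 1. With the length trend removed it was 1 without knockout 3 and 3 without knockouts 3 and 11, where 195 of 10152 and 167 of 10175 rose. The summed Acot change lay between -1.69 and -0.88 and the summed Cyp4a change between -1.53 and -0.63 over single libraries left out, and the direction held in each.

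Some changes that did not pass turned sign, and none passed after turning. With the length trend removed Fabp1 was at 0.030, Acads at 0.091 and Acaa2 at 0.011. With quantile normalization Acads was at 0.13, Acad11 at 0.023, Hadha at 0.12 and Acaa2 at 0.14. With median-ratio scaling Acads was at 0.077 and Hadha at 0.00091, and with the GC trend removed Acads was at 0.021. With the replicate block Cpt2 was at -0.039, Acads at 0.11, Ehhadh at 0.040 and Vnn1 at -0.50. With library weights Cpt2 was at -0.014 and Vnn1 at -0.095. Without knockouts 3 and 11 Acad11 was at 0.066, Hadha at 0.039, Acat1 at 0.039 and Vnn1 at -0.14. Over single libraries left out the ranges were -0.024 to 0.33 for Slc22a5, -0.090 to 0.23 for Acsl1, -0.028 to 0.19 for Cpt2, -0.12 to 0.034 for Acads and -0.23 to 0.15 for Vnn1. Genes near 1 FPKM, such as Acot2, Acot5 and Vnn1, rest on few fragments and are the least precise.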
